A study of Mus musculus with 4 samples.

Results

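The homeostatic microglia genes are 9 genes, namely markers of the resting immune cell of the retina and some of its regulators. The receptors Cx3cr1, P2ry12, Gpr34 and Siglech, the surface and secreted proteins Tmem119 and Olfml3, and the transcriptional regulators Spi1, Cebpa and Sall1 make up the group. They were chosen by name, from knowledge of microglia, and all 9 were found among the 48897 genes of the deposited count table. RNA-Seq libraries were made from pooled retinas of C57BL/6 mice, given as wild type in the labels, at postnatal day 9. On postnatal day 3, each left eye had received 0.6 nmol of a miR-124-3p antagomir in 1 μl by intravitreal injection (anti-miR-124 group), and each right eye the same amount of a scrambled control (negative control, NC group). An antagomir is a chemically modified antisense oligonucleotide that binds a mature microRNA. Both groups had the injection, so no library comes from an untouched eye, and the left eye cannot be told apart from the antagomir. Each group has 2 libraries. The labels say that retinas of a group came from several litters but not that the 2 libraries came from separate animals, so that p-values measure only the spread between these libraries. A left-eye and a right-eye library share a number in the table, which gives pair A (the libraries NC-A and anti-A) and pair B (NC-B and anti-B). Counts of a pair are given in the order NC, then anti-miR-124.

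Microglia are the resident macrophages of the retina and brain. They enter the retina before birth, depend on signals through the Csf1 receptor, and keep a surveying state in which transforming growth factor beta from their surroundings sustains genes such as P2ry12, Tmem119 and Sall1. When microglia turn to phagocytosis, as they do around dying neurons and vessels in the first weeks after birth, these genes are known to decrease while genes of lysosomes and lipid handling increase. miR-124 is abundant in neurons, and it has been described as a brake on C/EBPα and PU.1, the products of Cebpa and Spi1, in resting microglia. In retinal RNA as a whole, more microglia and more RNA of a gene per microglial cell cannot be told apart.

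The libraries held between 16317239 and 18726963 counts on genes. The 12 genes of retinal neurons and glia were abundant in all of them, with a sum of 9290 to 10700 TPM (a level scaled by gene length and library). The 6 endothelial genes summed to between 241 and 277 TPM in each library. NC-A stood apart, as its 20 lens genes, mostly crystallins, summed to 65100 TPM against 129 to 183 TPM in the others. Library anti-A had 1590 TPM of 6 red blood cell genes, against 405 to 746 TPM in the others. Beside the results that turn on NC-A, values without it are given. With the lens genes left out of the fit, the median log2 fold change of the 9 genes was 0.47, as with them. That setting leaves the counts of the 9 genes in NC-A as they are, so it cannot show whether lens tissue added to them. Without NC-A the median was 0.65.

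All 9 genes passed the filter on low counts and were tested with the rest of the table, by edgeR's quasi-likelihood test on TMM-normalized counts (a scaling by the trimmed mean of log ratios). After Benjamini-Hochberg adjustment, 0 of the 9 passed 0.05, as did 0 of the 17766 tested genes (0%). At an unadjusted p-value under 0.05 stood 1 of the 9, Gpr34, where 3.91% of all tested genes did. With the shared number as a block it was 0 of the 9, beside 376 of the 17766 tested genes. With crossed numbers as the block, added after seeing the data, it was 4 of the 9, beside 1306 of the 17766. The median log2 fold change of the 9 genes was 0.47, beside 0.0007 for all tested genes. In pair A the median log2 ratio of the 9 genes was -0.55, and 4 genes were above the control. In pair B it was 0.86, and all 9 were above it. With the numbers of the libraries crossed, the medians were 0.38 and 0.33. A ratio of at least 2-fold higher in pair B was found for 3 of the 9 genes (Tmem119, Spi1 and Cebpa), against 3.49% of all tested genes. In pair A, 0 of the 9 were at least 2-fold higher (background 1.39%) and 2 were at least 2-fold lower, Tmem119 and Olfml3 (background 2.77%). With 1 library per arm in each pair, these ratios have no test, and the intervals below cover counting error only. Without anti-B the median log2 fold change was -0.16, and without NC-A it was 0.65. Without anti-A, Cx3cr1 (log2 fold change 0.75, adjusted p = 0.0208) and Cebpa (2.34, adjusted p = 0.00526) passed by edgeR, among 256 of 18809 genes tested. When the filter on low counts was left out, Cebpa (adjusted p = 8.84e-05) and Cx3cr1 (adjusted p = 0.0478) passed by edgeR, among 379 of 31982 genes tested. DESeq2's Wald test passed 0 of the 9, with 1 of them, Cx3cr1, at an unadjusted p-value under 0.05, beside 354 of 31982 genes.

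**Figure D1:**
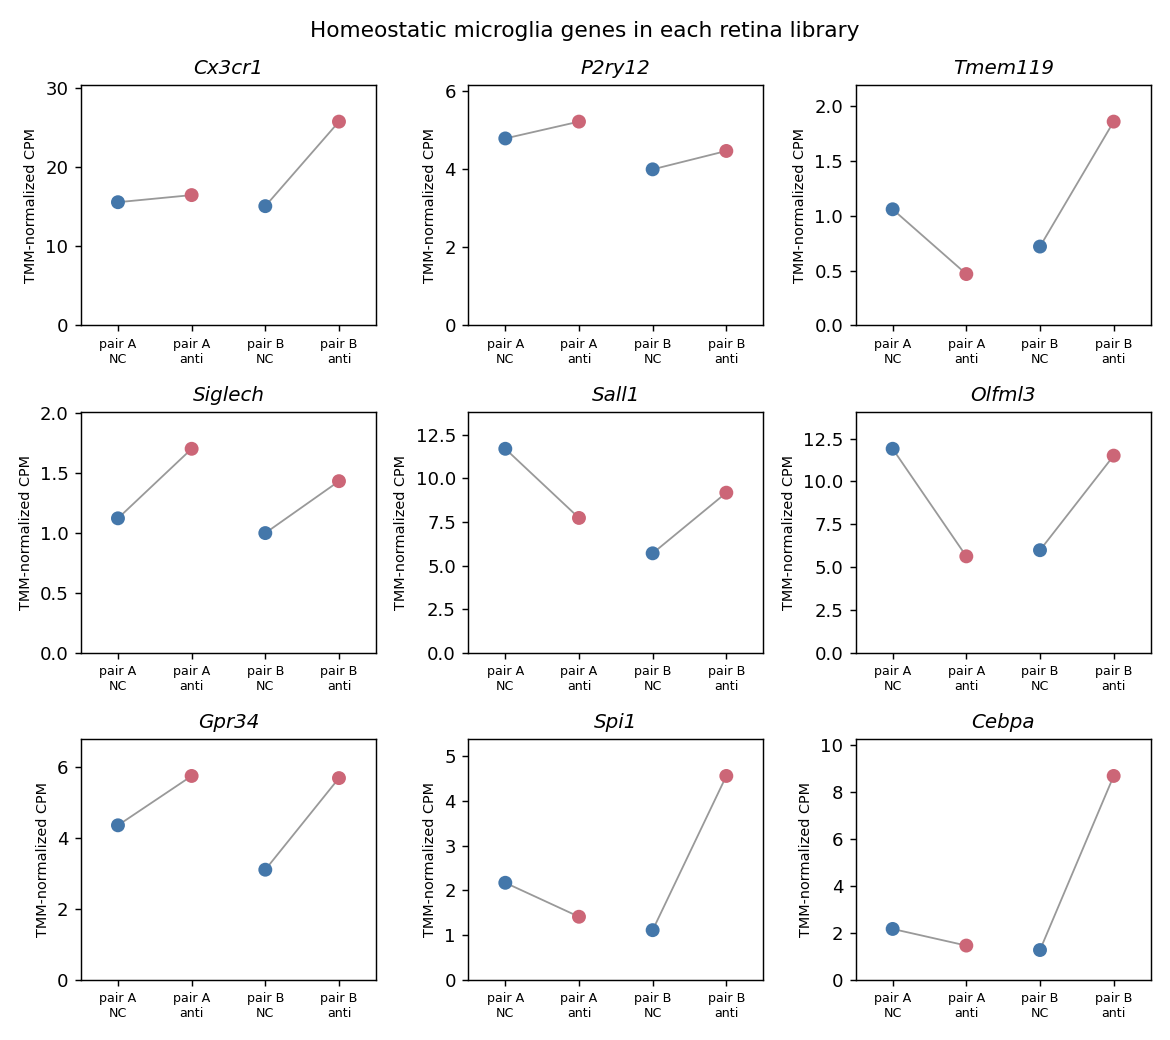
Each panel shows 1 homeostatic gene, with the 4 libraries on the horizontal axis and TMM-normalized CPM (counts scaled to library size) on a vertical axis from 0; NC libraries are blue, anti-miR-124 libraries red, and grey lines join a pair. Cebpa and Spi1 stood at 8.70 and 4.56 CPM in anti-B and at no more than 2.17 in the other libraries, while P2ry12 lay between 3.99 and 5.21 CPM throughout.

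By level per gene length, Olfml3 and Cx3cr1 were the most abundant. Olfml3 had between 10.6 and 21.9 TPM and Cx3cr1 between 12.6 and 22.8 TPM, and these ranges overlap. P2ry12 (5.13 to 6.59 TPM), Sall1 (3.55 to 6.67 TPM) and Gpr34 (2.95 to 5.38 TPM) formed a middle group that also overlapped. Spi1 (1.86 to 7.63 TPM) and Cebpa (1.61 to 10.9 TPM) ranked below them in each library but anti-B, where Cebpa was above all 3 of the middle group and Spi1 was too. Tmem119 (0.695 to 2.79 TPM) and Siglech (0.885 to 1.48 TPM) were the lowest, and their values rest on 8 to 35 counts in a library.

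Cebpa differed most in pair B among the regulators. Its product, C/EBPα, is a leucine zipper transcription factor of myeloid and other lineages. Cebpa (GRCm38, as all positions here, chr7:35119293-35121928) had 35 and 25 counts in pair A and 23 and 164 in pair B. Library anti-B was therefore high, and the other 3 lay close together. In pair B the fold was 6.83 (95% counting interval 4.40 to 11.1), and in pair A it was 0.674 (0.387 to 1.16). The groups overlapped, and the log2 fold change over both by edgeR was 1.57 ± 0.77 (SE), with an adjusted p = 0.989. Without anti-B it was -0.22.

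Spi1 encodes PU.1, the ETS-family transcription factor that myeloid cells cannot form without. Spi1 (chr2:91082374-91115759) had 35 and 24 counts in pair A (NC, then anti-miR-124) and 20 and 86 in pair B, so the same library was the high one. The fold was 4.12 in pair B (2.51 to 7.08) and 0.647 in pair A (0.368 to 1.12). Its log2 fold change by edgeR was 0.88 ± 0.60 (SE), with an adjusted p = 0.989, and -0.21 without anti-B.

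Sall1 is a zinc finger factor that holds microglia in their resting identity and is also used by other developing tissues. It went the same way as Cebpa and Spi1 in each pair, but its highest library was another. Sall1 (chr8:89027239-89044162) had 189 and 132 counts in pair A and 103 and 173 in pair B. The highest library was thus NC-A, which carried the lens transcripts, and the lowest was the other NC library. The fold was 0.659 in pair A (0.523 to 0.827) and 1.61 in pair B (1.25 to 2.07). The log2 fold change by edgeR was -0.04 ± 0.33 (SE), with an adjusted p = 0.998, and it was 0.57 without NC-A. The part of the lens-bearing library in this result was not tested.

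The RefSeq table of promoter windows (GRCm38.p6, 250 bases before to 50 after a gene's start) held 8 windows for 6 of the 9 genes. It held none for Spi1, Tmem119 and Gpr34, which were not searched. The window of Cebpa is shown because this gene differed most in pair B, and that of P2ry12 because it differed least. That of Siglech is shown because it alone, of the 6 genes with a window, holds the core motif of PU.1. The motif searched was GAGGAA on either strand, and capitals mark it. It was found in 1 of the 8 windows, against 28.3% of all 32851 windows of the same length. The match in Siglech lies on the strand opposite to the gene. No match says only that these letters are not in these windows. The windows lie at chr7:35119043-35119342 (Cebpa, plus strand), chr3:59262936-59263235 (P2ry12, minus strand) and chr7:55767934-55768233 (Siglech, plus strand), and are written 5′ to 3′ along the gene.
Cebpa: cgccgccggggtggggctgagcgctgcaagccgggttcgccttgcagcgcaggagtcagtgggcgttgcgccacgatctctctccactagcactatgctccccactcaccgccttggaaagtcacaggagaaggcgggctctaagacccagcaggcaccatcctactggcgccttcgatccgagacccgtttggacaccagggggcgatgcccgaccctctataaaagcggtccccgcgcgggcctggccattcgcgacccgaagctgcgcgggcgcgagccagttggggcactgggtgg
P2ry12: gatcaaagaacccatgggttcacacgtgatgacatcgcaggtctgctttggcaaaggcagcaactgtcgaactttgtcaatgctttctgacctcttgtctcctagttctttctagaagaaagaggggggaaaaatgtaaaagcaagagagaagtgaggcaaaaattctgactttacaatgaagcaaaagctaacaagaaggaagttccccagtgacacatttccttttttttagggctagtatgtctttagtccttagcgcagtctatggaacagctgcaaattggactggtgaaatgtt
Siglech: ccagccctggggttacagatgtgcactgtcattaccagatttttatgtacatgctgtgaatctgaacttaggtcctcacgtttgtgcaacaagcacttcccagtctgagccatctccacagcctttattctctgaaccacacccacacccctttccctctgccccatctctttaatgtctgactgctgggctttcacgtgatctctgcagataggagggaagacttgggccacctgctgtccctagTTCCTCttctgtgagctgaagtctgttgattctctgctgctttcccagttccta

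Among the receptors, Cx3cr1 and Gpr34 were higher in both anti-miR-124 libraries than in either NC library, as was Siglech. Such a separation held for 3 of the 9 genes and for 16.5% of all tested genes. Cx3cr1 is the receptor of the neuronal chemokine Cx3cl1, through which neurons hold microglia at rest. Cx3cr1 (chr9:120048683-120068296) had 251 and 281 counts in pair A, against 272 and 487 in pair B. The NC libraries lay close together, anti-A was slightly above them, and anti-B was well above. The fold was 1.06 (0.888 to 1.26) in pair A, an interval that includes 1, and 1.72 (1.48 to 2) in pair B. The log2 fold change by edgeR was 0.47 ± 0.21 (SE), with an adjusted p = 0.989. It was 0.11 without anti-B and 0.75 without anti-A. Cx3cr1 is also the 1 gene of the 9 that the study itself picked from these libraries, so its direction is not independent evidence.

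Gpr34 encodes a receptor of lysophosphatidylserine, a lipid of injured cells. Gpr34 (chrX:13623413-13640859) had 70 and 98 counts in pair A and 56 and 107 in pair B. Both anti-miR-124 libraries were near 5.7 CPM (5.74 and 5.68), and the NC libraries were lower, at 4.35 and 3.10 CPM. The fold was 1.32 (0.962 to 1.82) in pair A and 1.83 (1.31 to 2.58) in pair B. Its log2 fold change by edgeR was 0.62 ± 0.25 (SE), with an unadjusted p = 0.0457 and an adjusted p = 0.989. Leaving out 1 library gave 0.39 (NC-B) to 0.88 (NC-A). The unadjusted p was 0.0599 with the replicate block and 0.107 by DESeq2. Gpr34 and P2ry12 each lie within a larger gene on the opposite strand, Cask (2352 to 2943 counts) and Med12l (1061 to 1294 counts). Whether the counting used strand is not given in the sources used here. Gpr34 shares 0 exon bases with Cask and P2ry12 shares 9 of 2546 with Med12l (GENCODE M21).

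P2ry12, the ADP receptor that guides microglial processes to sites of injury, was the most even of the group. P2ry12 (chr3:59216271-59263014) had 77 and 89 counts in pair A and 72 and 84 in pair B. In CPM these were 4.78, 5.21, 3.99 and 4.46, so that the groups overlapped. The fold was 1.09 (0.795 to 1.5) in pair A and 1.12 (0.806 to 1.55) in pair B. In pair B the upper bound for P2ry12 lay below the lower bounds for Spi1 (2.51) and Cebpa (4.40). P2ry12 had the lowest pair B fold of the group and these regulators the highest, and they were compared after their values were seen. The intervals cover counting error only, with 1 library per arm. The log2 fold change of P2ry12 by edgeR was 0.14 ± 0.24 (SE), with an adjusted p = 0.989.

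Siglech is a sialic acid-binding lectin that signals through the adaptor Tyrobp. Siglech (chr7:55768138-55778925) had 18 and 29 counts in pair A and 18 and 27 in pair B. Both anti-miR-124 libraries were above both NC libraries, but at this depth each interval included 1, with folds of 1.52 (0.816 to 2.91) in pair A and 1.44 (0.763 to 2.77) in pair B. Its log2 fold change by edgeR was 0.56 ± 0.34 (SE), with an adjusted p = 0.989. The adaptor Tyrobp, named here after its values were seen, had 56 and 43 counts in pair A and 39 and 178 in pair B, a fold of 4.37 in pair B.

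**Figure D2:**
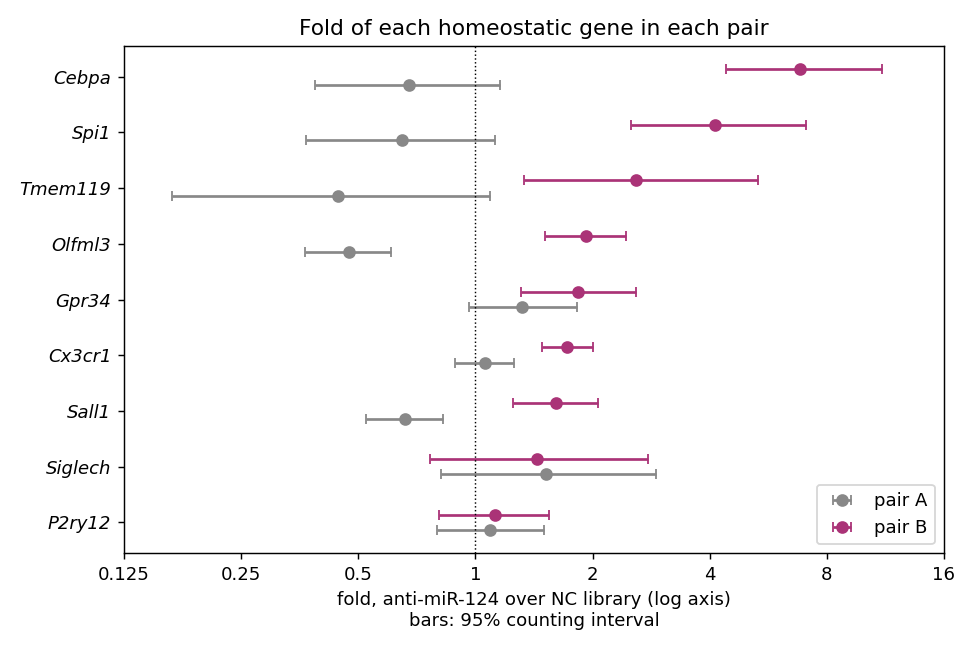
Points give the fold of each homeostatic gene, anti-miR-124 over NC library, on a log axis, in pair A (grey) and pair B (purple), with bars for the 95% counting interval. In pair B the folds ran from 1.12 for P2ry12 to 6.83 for Cebpa; in pair A, Sall1 and Olfml3 lay below 1 with their whole interval.

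Tmem119 encodes a transmembrane protein that sets microglia apart from other macrophages. Tmem119 (chr5:113793729-113800358) had 17 and 8 counts in pair A and 13 and 35 in pair B. The anti-miR-124 group thus held both the lowest and the highest library. The fold was 0.444 (0.166 to 1.09) in pair A and 2.58 (1.33 to 5.31) in pair B, and the log2 fold change by edgeR was 0.41 ± 0.65 (SE), with an adjusted p = 0.989. It turned to -0.90 without anti-B.

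Olfml3 encodes a secreted glycoprotein of the extracellular matrix. Olfml3 (chr3:103735394-103738001) had 192 and 96 counts in pair A and 108 and 216 in pair B. The lens-bearing NC-A and anti-B were the high ones, at 11.9 and 11.5 CPM, and the other libraries had 5.98 and 5.62 CPM. The fold was 0.472 (0.365 to 0.606) in pair A and 1.92 (1.51 to 2.44) in pair B. Its log2 fold change by edgeR was -0.06 ± 0.42 (SE), with an adjusted p = 0.997, and 0.52 without NC-A. Whether the lens tissue carried the Olfml3 transcripts of that library was not tested.

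The homeostatic genes were also read against 20 other genes of microglia, among them Ctss and the complement genes. Of these 20, 18 were tested and 0 had an adjusted p under 0.05. Higher at an unadjusted p-value under 0.05 were 3, where 3.91% of all tested genes passed in either direction. Their median log2 ratio was -0.10 in pair A and 1.41 in pair B. In pair B, 13 of 18 were at least 2-fold higher, against 3.49% of all tested genes. The lysosomal protease gene Ctss had 261 and 295 counts in pair A and 253 and 1115 in pair B (4.22-fold, 3.68 to 4.86). C1qb and C1qc, subunits of the first complement component, were 3.77-fold and 3.31-fold higher in pair B.

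Within a library, the TPM of a homeostatic gene can be set against the summed TPM of these 20 genes, which was 290 and 287 in pair A (NC, then anti-miR-124) and 241 and 681 in pair B. P2ry12 made 1.93, 2.29 and 2.13 TPM per 100 TPM of the other microglia genes in the first 3 of these libraries and 0.839 in anti-B. Siglech made 0.312, 0.516 and 0.367, and then 0.186. Cx3cr1 made 4.34, 4.99 and 5.53, and then 3.35. Sall1 and Gpr34 were likewise lowest in that library, at 0.837 and 0.790. Cebpa was highest there, with 1.61 against 0.632 to 0.862 in the others. Olfml3 made 7.18 and 3.69 in pair A and 4.75 and 3.21 in pair B, and Tmem119, at 0.410 in anti-B, lay within the range of the others, 0.242 to 0.501. Spi1, at 1.12, lay inside the others, 0.770 to 1.15. All 9 genes together made 19.9 and 16.7 in pair A and 17.4 and 12.4 in pair B. Relative to these 20 genes, many of which other macrophages also express, the receptors were thus lower in anti-B and Cebpa was higher. Of the macrophage markers given below, Mrc1, Ccr2, Stab1, Pf4, F13a1 and Ms4a7 were also highest in anti-B, and their part was not tested. These are values of 1 library, with no test.

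**Figure D3:**
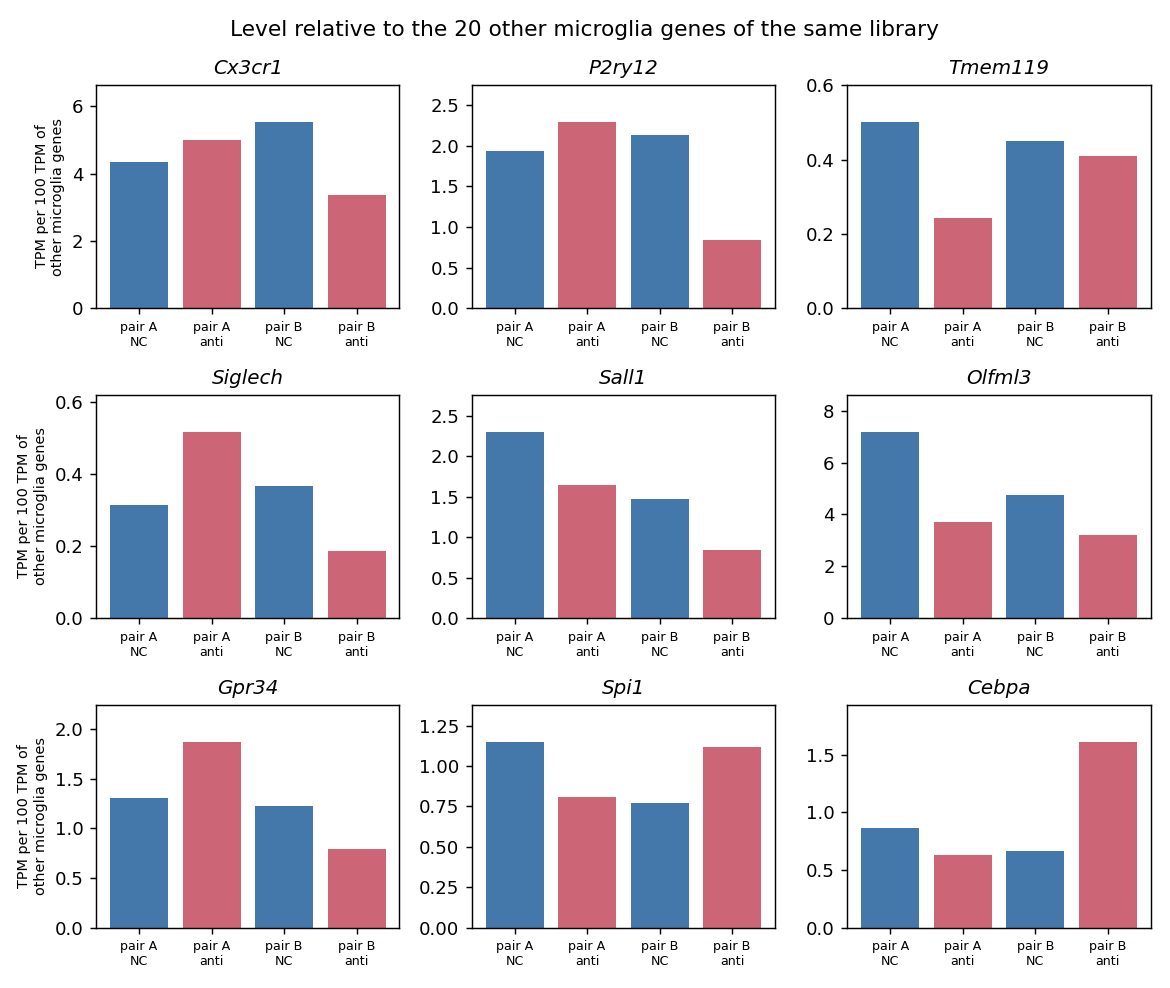
Bars give the TPM of each homeostatic gene per 100 TPM of 20 other microglia genes in the same library, from 0, for the NC (blue) and anti-miR-124 (red) libraries of both pairs. P2ry12 went from 2.13 to 0.839 within pair B while Cebpa went from 0.666 to 1.61.

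Regulators that work with Spi1, Cebpa and Sall1 in myeloid cells were read from a list of 12 genes, all tested. None had an adjusted p under 0.05. Higher at an unadjusted p-value under 0.05 were 2, Runx1 and Cebpb, where 3.91% of all tested genes passed in either direction. The median log2 ratio was 0.05 in pair A and 0.50 in pair B. At least 2-fold higher in pair B were 4 of 12, against 3.49% of all tested genes. These were Runx1, Cebpb, Cebpd and Ikzf1, all named after their values were seen. Runx1 had 18 and 42 counts in pair A and 26 and 77 in pair B. Ikzf1 had 31 and 24 in pair A and 8 and 48 in pair B. In pair B the folds were 1.00 for Maf, 1.39 for Bhlhe41 and 1.09 for Smad3, which the study picked. Maf had 1140 counts in the lens-bearing NC library and 570 to 642 in the others. Of the relatives of Cebpa, named after their values were seen, Cebpb had 19 and 27 counts in pair A and 17 and 46 in pair B, and Cebpd had 53 and 46 in pair A and 47 and 195 in pair B.

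The ligands, receptors and adaptors that hold microglia in the retina made a list of 12 tested genes. Csf1r and Tyrobp are also among the 20 other microglia genes, so these lists are not separate. None of the 12 had an adjusted p under 0.05. Higher at an unadjusted p-value under 0.05 were 2, Csf1 and Csf1r, where 3.91% of all tested genes passed in either direction. The median log2 ratio was -0.06 in pair A and 0.73 in pair B. Cx3cl1, the ligand of Cx3cr1, had 430 and 589 counts in pair A and 530 and 469 in pair B, so it was lower in the library in which its receptor was highest (0.848-fold, 0.747 to 0.962). The transforming growth factor gene Tgfb2 and the receptor gene Tgfbr1 were near 1 in pair B (1.03-fold and 1.04-fold). Other genes of this list, named after their values were seen, were not all so. Their pair B folds were 2.72 (Tgfb1, 1.93 to 3.92), 2.70 (Csf1), 1.86 (Nrros), 1.51 (Tgfbr2) and 0.936 (Itgb8). The integrin gene Itgav, whose product frees transforming growth factor beta from its latent form, was 1.44-fold higher (1.33 to 1.56). Csf1r, which the study picked, had 373 and 415 counts in pair A and 322 and 762 in pair B.

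Of 16 tested genes of activated, phagocytic microglia, 5 had a higher ratio in pair B than Cebpa, the highest homeostatic gene. Of 18 genes in this list, 16 were tested and 0 had an adjusted p under 0.05. Higher at an unadjusted p-value under 0.05 were 5, where 3.91% of all tested genes passed in either direction. The median log2 ratio was -0.16 in pair A and 1.12 in pair B, with a highest log2 ratio of 4.58 in pair B (Gpnmb, named after its values were seen, with 257 and 144 counts in pair A and 179 and 4511 in pair B) against 2.72 among the homeostatic genes. Spp1, the secreted phosphoprotein osteopontin, had 591 and 391 counts in pair A and 860 and 14386 in pair B, a fold of 16 (15.0 to 17.2). Apoe and the cathepsin gene Ctsd were 1.91-fold and 2.04-fold higher in pair B. Fabp5, also of this list, was 1.08-fold in pair B and highest in the lens-bearing library, with 3878 counts against 1022 to 1288. The study picked 4 genes of this list (Apoe, Ctsb, Igf1 and Lpl), so that their direction is not independent evidence.

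**Figure D4:**
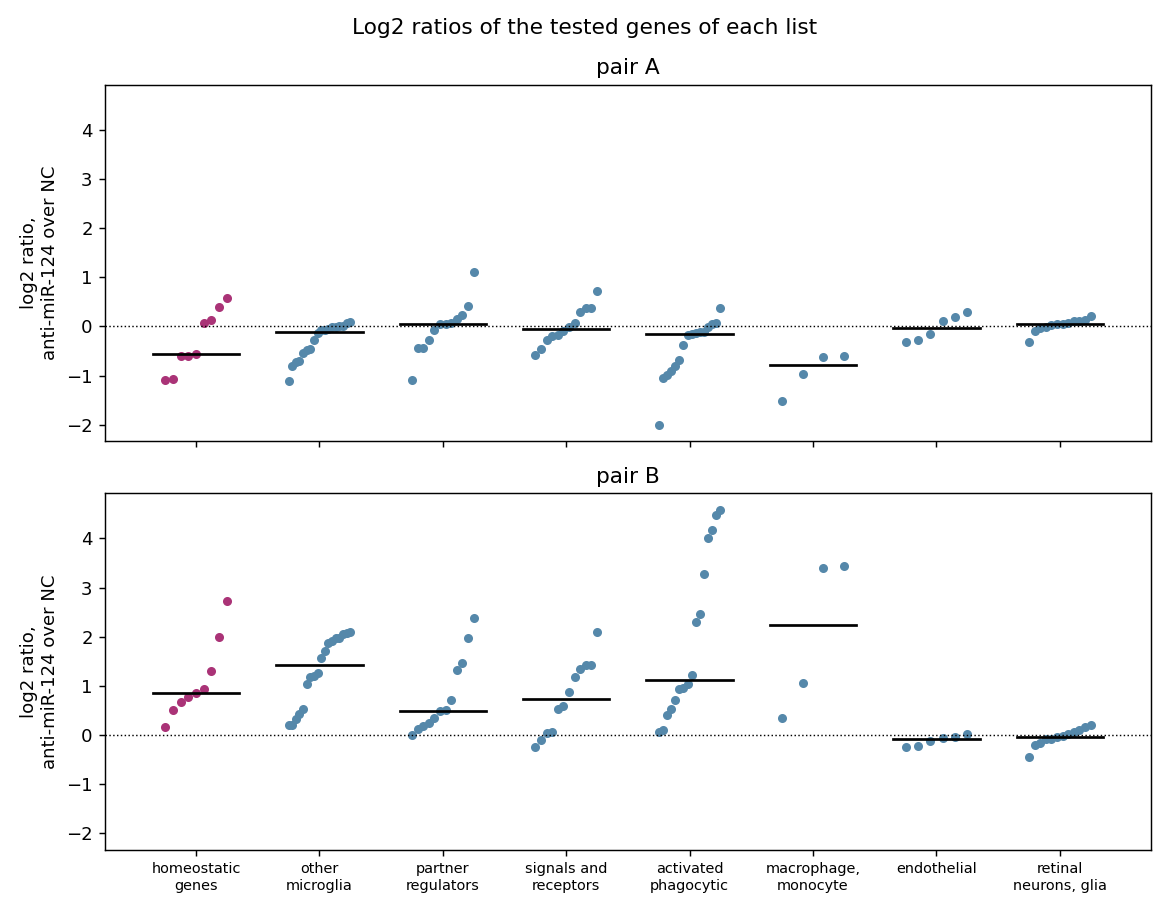
Each point is the log2 ratio (anti-miR-124 over NC, TMM-normalized) of a tested gene, in pair A (upper) and pair B (lower), grouped by gene list, with the median as a black line. In pair B the median was 0.86 for the homeostatic genes, 1.41 for the other microglia genes, 1.12 for the activated genes and -0.04 for genes of retinal neurons and glia.

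Markers of other cells that express some of these genes were read beside them. Of 12 macrophage and monocyte genes, 4 were tested and 3 of these were at least 2-fold higher in pair B, against 3.49% of all tested genes. The list summed to 18.3 and 10.5 TPM in the NC group and to 10.1 and 37.4 TPM in the anti-miR-124 group. The monocyte markers Ly6c2 and Chil3 had 0 counts in all libraries, and Ccr2 had 0 in both libraries of pair A and 2 and 25 in pair B. Mrc1, the mannose receptor gene of tissue macrophages, had 56 and 20 counts in pair A and 12 and 142 in pair B. Stab1 had 378 and 265 in pair A and 300 and 656 in pair B. Pf4, too low to be tested, had 6 and 0 in pair A and 1 and 25 in pair B. F13a1 had 25 and 13 counts in pair A and 4 and 56 in pair B. Ms4a7, also too low to be tested, had 7 and 1 in pair A and 4 and 41 in pair B. F13a1 and Ms4a7 were named after their values were seen. The marker of border macrophages Lyve1 had 38 and 26 counts in pair A and 26 and 35 in pair B, and Cd163 and Plac8 had no more than 6 in any library. Of the named markers, Mrc1, Ccr2, Stab1, Pf4, F13a1 and Ms4a7 were thus highest in the library in which Spi1 and Cebpa were highest. Lyve1, Cd163 and Plac8 were not highest there. The part of these markers in those results was not tested. The 8 neutrophil genes summed to between 2.65 and 3.44 TPM, with Elane and Mpo at 0 throughout. The 8 lymphocyte genes summed to between 4.42 and 6.20 TPM, of which Cd8a gave most, and Cd3e, Cd3d and Ms4a1 had 0 counts. Mural and mesenchymal genes summed to between 98.5 and 115 TPM, while in pair B the folds were 4.05 and 2.86 for the collagen genes Col1a1 and Col1a2, 0.769 for the pericyte gene Rgs5, and 0.939 for the receptor gene Pdgfrb. Pigment epithelium genes summed to 34.1 TPM in NC-A and to 58.6 to 84.6 TPM in the others.

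The mean profile of the 9 genes over the 4 libraries was highest in anti-B, at 0.615 on the log2 scale about each gene's mean, then 0.088 in NC-A and -0.217 in anti-A, and lowest in NC-B, at -0.486. The nearest of 13536 other genes with a mean of at least 50 counts, by Euclidean distance over the 4 libraries, were Nbl1 (0.0833), Syngr2 (0.0917), Mxra8, Nagpa, Dnase2a, Plekhg2, Nmi, Mfap4, Il13ra1 and LOC108169076 (0.159). Nbl1 had 173 and 148 counts in pair A and 127 and 272 in pair B. Likeness over 4 libraries is a description of these libraries.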

How the data were processed

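RNA-Seq libraries of mouse retina were analysed, 2 per group. The authors deposited counts of reads per gene, without normalization, with gene lengths. Per the labels, reads were aligned with HISAT2 and the build was mm9, but of 36837 symbols matched to RefSeq GRCm38, 99.8% overlapped it in position, so GRCm38 was used. The counting tool is not given in the sources used here. The 4 deposited RPKM columns were not used.

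Columns were assigned to groups by the eye they name. No count column was left unmapped, and no libraries were duplicates (chi-square per degree of freedom of at least 9.2 within groups). The number shared by columns does not match the replicate numbers of the titles.

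edgeR 4.0.16 (R 4.3.3, limma 3.58.1) was used with TMM, its default filter, a two-sided quasi-likelihood test without covariates and Benjamini-Hochberg adjustment over all tested genes. Standard errors were taken as the log2 fold change over the root of F. Log2 ratios within a pair used a prior count of 1, and counting intervals (95%) were exact conditional binomial intervals on TMM-scaled counts. They cover counting error only, since reads without molecular identifiers are not independent molecules. TPM was computed from counts and lengths. Alternatives used DESeq2 1.42.0, voom, other scalings and filters, a block and leaving out each library. Python 3.11.15 with pandas 2.3.3 served the other steps.

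The genes and lists were chosen with earlier results of these data known. Named from the other lists were the 4 genes with the highest mean TPM, some of which are not reported here, and the 10 nearest profiles. Markers of other cells that define a type or were at 0 counts were named after their values were seen, as were the genes said to be so. Sites of miR-124-3p were not analysed here.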

Additional observations from a re-analysis of the deposited data

How the results depend on the processing

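With 2 libraries per group, a gene of few counts, such as Tmem119 or Siglech, has a wide counting error. The 9 homeostatic genes held 0 adjusted p-values under 0.05 in 12 of 14 alternatives by edgeR, DESeq2 or voom. The exceptions were 2 genes (Cx3cr1 and Cebpa) without the filter on low counts, where 379 of all genes passed in place of 0, and 2 genes (the same by name) without anti-A, where 256 of all genes passed. DESeq2's Wald test passed 34 of all genes. Leaving out 1 library in turn gave between 0 and 256 of all genes and between 0 and 2 of the 9. A group left with 1 library is assumed to vary like the other. The cause of these differences was not tested. The median log2 fold change of the 9 genes ran from -0.16 to 0.65.

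With the replicate block on the shared number, 0 of all genes passed, and 376 had an unadjusted p-value under 0.05 against 694 without it. The deviations of same-numbered libraries had a correlation of -0.161 over genes. The lens and blood genes of single libraries were included in it. Whether the numbers are crossed cannot be told from this value and was not tested. With crossed numbers as the block, chosen after seeing the data, 160 of all genes and 0 of the 9 passed. The 2 crossed pairs gave the 9 genes median log2 ratios of 0.38 and 0.33.

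Directions of 5 genes turned in some setting. Sall1 was 0.03 with the replicate block, 0.01 with the crossed block and 0.07 with voom, and ran from -0.47 to 0.57 with 1 library left out. Such ranges were -0.66 to 0.52 for Olfml3, -0.90 to 1.07 for Tmem119, -0.21 to 1.48 for Spi1 and -0.22 to 2.34 for Cebpa. Under total counts, RLE size factors or TPM, 0 of the 9 genes changed direction in a pair.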
